A study of Mus musculus with 80 samples.

Results

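Nuclear RNA was measured in hepatocytes from mice fasted for 8 h, set against hepatocytes from mice that kept their food. The 8 libraries were chosen by their labels alone, 4 labelled as an 8 h fast and 4 as ad libitum feeding at the same hour, out of 80 libraries in the series. All mice were female and of the HEP-INTACT line, in which hepatocyte nuclei carry a tag that lets them be pulled out of a liver homogenate on beads. Labels give neither strain, age and driver of the tag nor the number of mice behind each tagged library. The fasted mice lost their food at ZT12, the start of the active dark phase, and livers of both groups were taken at ZT20. Total nuclear RNA was sequenced without poly(A) selection. Nuclear RNA in general holds more unspliced transcripts than cytoplasmic mRNA does; the unspliced share of these libraries was not measured. The other libraries hold the same fasted and fed groups at 3, 16 and 24 h, tagged macrophage nuclei of a MAC-INTACT line, and 16 pools of unpurified liver nuclei from 4 mice each.

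In the fed state hepatocytes store glucose as glycogen and fat and secrete most plasma proteins. When food is withdrawn, falling insulin and rising glucagon and glucocorticoids turn them to fatty acid oxidation, ketone body formation and glucose output. Fatty acids released from fat tissue act on the nuclear receptor PPARα, and sterol and lipid synthesis is driven by the SREBP transcription factors, which feeding and insulin sustain.

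Fasted libraries held 13162181 to 26875038 counted reads and fed libraries 14148894 to 19356463, a difference that an exact two-sided permutation test did not separate (p = 0.686; smallest possible p 0.0286). All 18 hepatocyte markers were detected. Their summed level was 11091 to 27433 CPM (by plain library totals) in fasted and 15006 to 17168 in fed libraries. The 18 Kupffer cell and macrophage markers summed to 88.6 to 140.3 CPM in fasted and 64.5 to 83.5 in fed libraries, and none was at 0. The 10 cholangiocyte markers summed to 95.7 to 181 CPM in fasted and 438 to 541 CPM in fed libraries, and 3 of 7 tested fell and none rose; their part in the results below was not tested. Endothelial, stellate and lymphocyte marker sums overlapped between the groups. Of 9 monocyte and neutrophil markers, S100a8, Retnlg and Mpo had no read in any of the 8 libraries. The fasted libraries were less alike than the fed ones, with pairwise Pearson correlations across genes of 0.969 to 0.990 against 0.988 to 0.993. Between a fasted and a fed library the correlation was 0.932 to 0.963, and the first principal component, with 67.3% of the variance, separated the groups. Fewer cells of a type and less RNA per cell cannot be told apart in such bulk libraries.

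Of 12942 genes tested, 2332 were higher and 2682 lower in fasted hepatocyte nuclei (edgeR, adjusted p under 0.05), which is 18% and 20.7% of genes and 38.7% together. Among them, 634 were more than 2-fold higher and 1221 more than 2-fold lower. The median log2 fold change over all genes was -0.02. Fasted and fed libraries did not overlap for 37.1% of all genes tested. Levels below are CPM (counts scaled to a common library size), not divided by gene length, with libraries in the order 1 to 4.

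**Figure D1:**
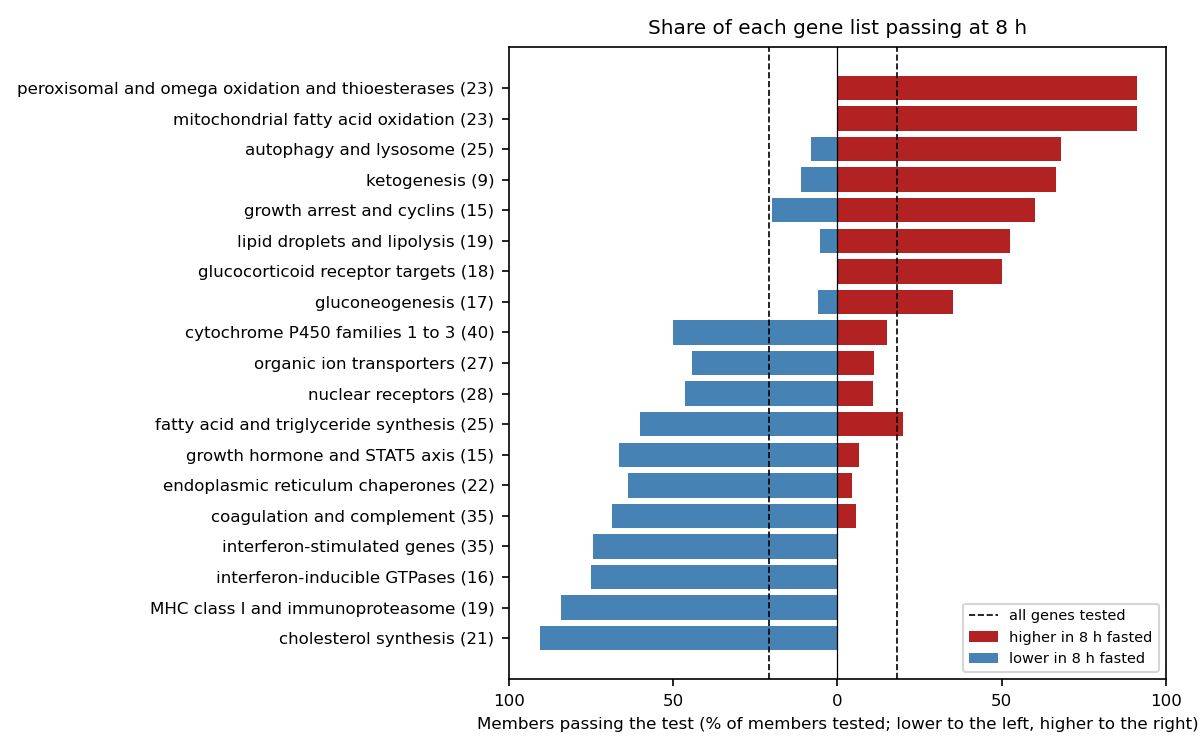
Share of the tested members of 19 gene lists that were higher (right, red) or lower (left, blue) in 8 h fasted hepatocyte nuclei at an edgeR adjusted p under 0.05, with the number of tested members in brackets and dashed lines at 18% and 20.7% for all genes. Fatty acid oxidation lists lie far to the right, and cholesterol synthesis, MHC class I and interferon lists far to the left. The 19 lists are a selection, and others, such as clock genes and hepatocyte markers, are not drawn. Members and lists were chosen with earlier results of these data known.

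Genes of fat oxidation were higher in fasted nuclei, nearly without exception in the lists used here. The members of these and the later lists were chosen with earlier results of these data known. Of 23 genes of peroxisomal and omega oxidation and thioesterases, 21 rose and none fell. Their median log2 fold change was 1.64, against -0.02 for all genes. Of 23 genes of mitochondrial fatty acid oxidation, 21 also rose and none fell (median 1.38). Cyp4a14 (chr4:115486200-115496141, mm10), the omega-hydroxylase and a classical PPARα target, had 1811, 3589.8, 2217 and 3752 CPM in fasted libraries, against 60.1, 77.7, 97.2 and 116 CPM in fed libraries. Every fasted library lay more than an order of magnitude above the highest fed one, and the log2 fold change was 5.02 ± 0.49 (SE, n = 4 each, edgeR adjusted p = 1.69e-08). Its close relative Cyp4a10 had 780.3 to 2202 CPM in fasted and 61.2 to 104 CPM in fed libraries. Ehhadh (chr16:21761285-21787834), the bifunctional enzyme of peroxisomal β-oxidation, had 1016, 1004, 2008 and 1409 CPM in fasted libraries, against 59.2, 95.2, 72.2 and 97.3 CPM in fed libraries (log2 fold change 4.07 ± 0.38, edgeR adjusted p = 5.59e-09). Acot1, an acyl-CoA thioesterase, had 96.8, 87.5, 100.0 and 176 CPM in fasted libraries and 6.51, 6.14, 7.38 and 6.26 CPM in fed ones. The fed values of Acot1 hardly varied, and the fasted library 4 stood above its group. Pex11a, which takes part in peroxisome division, rose by a log2 fold change of 3.22 ± 0.26, with 89.3 to 115 CPM in fasted and 9.30 to 13.7 CPM in fed libraries.

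The mitochondrial genes moved less far but as evenly. Cpt1a, the enzyme that commits long-chain fatty acids to mitochondria, had 749.7, 816, 626 and 1059 CPM in fasted libraries, against 271, 256, 229 and 255 CPM in fed libraries (log2 fold change 1.69 ± 0.22, edgeR adjusted p = 1.15e-06). Slc22a5, the carnitine transporter, rose further (3.49 ± 0.32), with 234 to 537 CPM in fasted and 26.0 to 41.1 CPM in fed libraries. Acadl, a long-chain acyl-CoA dehydrogenase, had 145 to 217 CPM in fasted and 56.3 to 73.5 CPM in fed libraries. Vwa8, which encodes a mitochondrial ATPase, was among the largest gains in CPM, with 3154, 3497, 2932 and 4306 CPM in fasted against 962, 921, 996 and 940.3 CPM in fed libraries.

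Ketone body genes followed with 6 of 9 tested genes higher and 1 lower (median 0.86). Acat1, which interconverts acetyl-CoA and acetoacetyl-CoA, rose by 1.15 ± 0.13, with 322 to 362 CPM in fasted and 147 to 163 CPM in fed libraries and no overlap. Fgf21, a secreted fasting hormone, had 6.18, 3.73, 7.14 and 9.15 CPM in fasted libraries, against 0, 0.345, 0.406 and 0.250 CPM in fed libraries (4.70 ± 0.51).

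Of 19 genes of lipid droplets and lipolysis, 10 rose and 1 fell (median 1.06). Plin4, a droplet coat protein, had 297, 565, 572 and 659.5 CPM in fasted libraries and 35.3, 41.0, 29.3 and 40.8 CPM in fed ones (3.84 ± 0.44). Cidec, which promotes droplet growth, had 13.4, 3.35, 6.31 and 16.4 CPM in fasted and 0.135 to 0.401 CPM in fed libraries (5.40 ± 0.75). Pnpla2, the adipose triglyceride lipase, rose as well (2.16 ± 0.27), so that genes of storage and of breakdown were both higher. Angptl4, a secreted inhibitor of lipoprotein lipase, had 132 to 271 CPM in fasted and up to 21.4 CPM in fed libraries (3.64 ± 0.37).

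**Figure D2:**
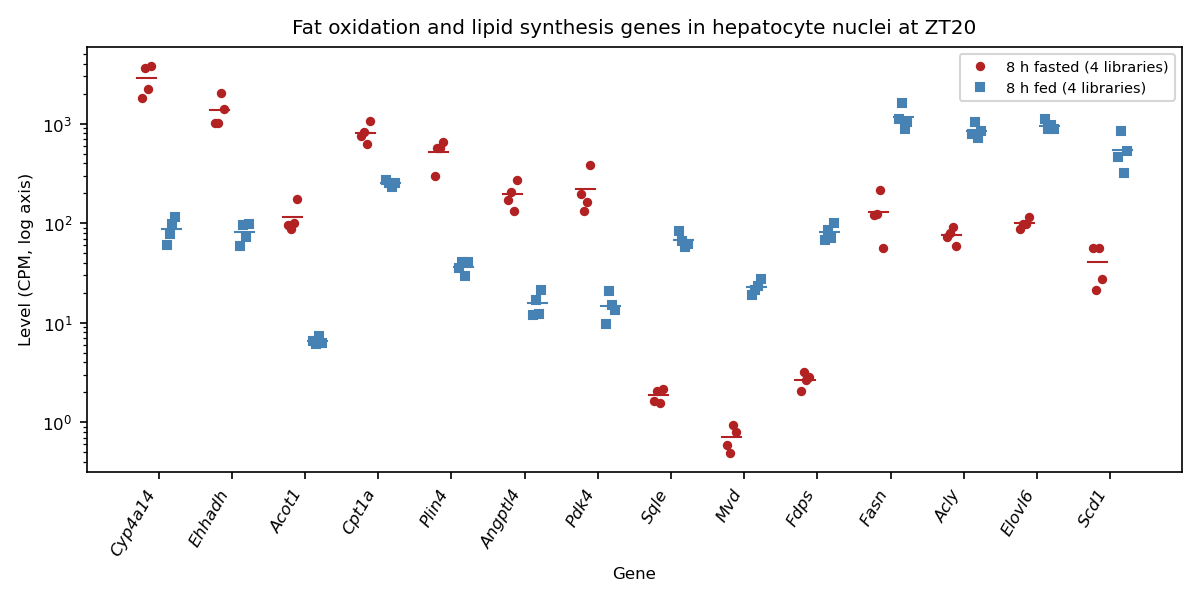
Level in CPM (log axis) of 14 lipid genes in each of the 4 fasted (red circles, left) and 4 fed (blue squares, right) hepatocyte libraries, with the group mean as a line. No fasted library overlaps a fed one for any of the 14. Some of these genes were named by rules that use these values, and 37.1% of all genes tested did not overlap. Cyp4a14 is at 1811 to 3752 CPM in fasted and 60.1 to 116 CPM in fed libraries. Sqle is at 1.55 to 2.19 CPM in fasted and 57.6 to 83.4 CPM in fed libraries.

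Cholesterol synthesis fell almost as a block. Of 21 genes of the pathway, 19 fell and none rose, with a median log2 fold change of -3.31. Sqle (chr15:59315092-59331193), squalene epoxidase, had 1.63, 2.08, 1.55 and 2.19 CPM in fasted libraries, against 83.4, 66.4, 57.6 and 61.5 CPM in fed libraries (-5.19 ± 0.50, edgeR adjusted p = 1.36e-08). Mvd had 0.494 to 0.941 CPM in fasted and 18.8 to 27.2 CPM in fed libraries, and Fdps 2.05 to 3.24 CPM in fasted and 68.0 to 99.6 CPM in fed libraries. These 3 genes were among the 12 lowest fold changes of all eligible genes. Insig1, which retains SREBP proteins in the endoplasmic reticulum and is itself an SREBP target, had 28.7 to 44.0 CPM in fasted and 177 to 356 CPM in fed libraries (-2.83 ± 0.32).

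Of 25 genes of fatty acid and triglyceride synthesis, 15 fell and 5 rose (median -0.84). That is 60% lower, against 20.7% of all genes tested, and 20% higher, against 18%. Acly, which makes cytosolic acetyl-CoA, had 73.0, 78.8, 90.7 and 59.1 CPM in fasted libraries, against 785, 1026, 723 and 847 CPM in fed libraries (-3.49 ± 0.30, edgeR adjusted p = 1.26e-09). Fasn, fatty acid synthase, had 122, 123, 215 and 56.6 CPM in fasted and 1110.1, 1622, 877 and 1031 CPM in fed libraries (-3.17 ± 0.50). Elovl6 and Scd1, which lengthen and desaturate the product, fell by 3.25 ± 0.36 and 3.73 ± 0.55 on the log2 scale. Srebf1, which encodes the lipogenic SREBP-1, had 22.8 to 72.6 CPM in fasted and 271 to 551 CPM in fed libraries. Against the trend, Elovl3, an elongase of very long fatty acids, rose, with 1.63, 1.04, 1.22 and 2.10 CPM in fasted and 0.115 to 0.677 CPM in fed libraries (2.33 ± 0.56, edgeR adjusted p = 0.00148).

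Abcg5 and Abcg8, whose products together pump sterols into bile, rose by 1.12 ± 0.20 and 1.84 ± 0.19. The 2 genes overlap over 6622 bases on opposite strands, and the sources do not state whether reads were counted by strand. Of 22 bile acid genes, 3 rose and 8 fell (median -0.27, and -0.12 without fasted library 4). Cyp7a1, which starts the classical route to bile acids, had 21.3, 1.48, 2.38 and 2.43 CPM in fasted libraries, against 136, 149.5, 248 and 213 CPM in fed libraries (-4.69 ± 0.70, edgeR adjusted p = 7.21e-06). The fasted library 1 was the highest of its group and still lay far below every fed library. Cyp2c70, which makes muricholic acids, fell by 3.47 ± 0.53 on the log2 scale.

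Glucose genes gave a less even picture. Of 17 gluconeogenesis genes, 6 rose and 1 fell (median 0.66). Without fasted library 4 the list had 4 genes higher, 1 lower and a median of 0.32, without fed library 3 it had 4 higher and 1 lower, and without fasted library 2 none was lower. Pck1, the PEPCK gene, had 617, 1782, 1107 and 1494 CPM in fasted libraries, against 465, 588, 258 and 478 CPM in fed libraries (1.48 ± 0.52, edgeR adjusted p = 0.0240). G6pc, the glucose-6-phosphatase gene, had 828, 1353, 1365 and 1203 CPM in fasted and 309.5, 434, 301 and 664 CPM in fed libraries (1.48 ± 0.50, edgeR adjusted p = 0.0203). The groups did not overlap for either gene, yet the calls were near the threshold: without fasted library 2, fed library 3 or fasted library 4 the adjusted p of Pck1 was 0.0701, 0.0740 and 0.0522, and without fed library 1 or 3 that of G6pc was 0.0573 and 0.0594.

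Genes that route pyruvate and sense glucose moved further. Pdk4, the kinase that shuts pyruvate dehydrogenase, had 198, 133, 162 and 384 CPM in fasted and 9.63, 21.0, 15.2 and 13.5 CPM in fed libraries (3.89 ± 0.52). Txnip (chr3:96557957-96561857), an inhibitor of glucose uptake that glucose itself induces through ChREBP, had 229, 117, 172 and 177 CPM in fasted libraries, against 3.51, 3.96, 5.08 and 6.66 CPM in fed libraries (5.17 ± 0.47, edgeR adjusted p = 4.99e-09). In contrast Pklr, the liver pyruvate kinase and another ChREBP target, fell by 2.88 ± 0.44 on the log2 scale.

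Of 21 glycogen genes, 7 rose and 5 fell (33.3% and 23.8%, against 18% and 20.7% of all genes tested). Within the list the phosphatase-targeting subunits split, as Ppp1r3b fell (-1.54 ± 0.26; 164 to 267 CPM in fasted and 474 to 740.2 CPM in fed libraries) and Ppp1r3g rose (5.50 ± 1.10). Its fasted values were uneven: Ppp1r3g had 1.15, 3.84, 1.05 and 19.3 CPM in fasted and 0.0574 to 0.223 CPM in fed libraries, with fasted library 4 alone accounting for most of the fasted mean. Gbe1, the branching enzyme, rose by 1.15 ± 0.24. Irs2, the insulin receptor substrate that FoxO1 induces, had 135, 225, 241 and 436 CPM in fasted and 43.9, 29.7, 79.9 and 96.6 CPM in fed libraries (2.05 ± 0.36).

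Several hormone-responsive genes differed widely between the fasted libraries, as did other genes given below. Of 18 glucocorticoid receptor targets, 9 rose and none fell (median 1.11); without fasted library 4, 1 fell. Fkbp5, a co-chaperone that the receptor induces, had 124, 844, 153 and 983 CPM in fasted libraries, against 92.0, 57.8, 83.3 and 52.3 CPM in fed libraries (2.88 ± 0.46, edgeR adjusted p = 1.97e-05). Libraries 2 and 4 were high, while libraries 1 and 3 lay only a little above the fed values. Lpin1, a phosphatidate phosphatase and coactivator, had 67.5, 1802, 132 and 3237 CPM in fasted and 229, 107, 157 and 143 CPM in fed libraries, so that fasted libraries 1 and 3 lay within or below the fed range (3.04 ± 0.72). Igfbp1, which binds IGF1 and is induced when insulin is low, had 37.5, 272, 47.4 and 696 CPM in fasted and 4.62, 7.93, 15.6 and 37.1 CPM in fed libraries (4.00 ± 0.94).

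Ppargc1a, a coactivator of gluconeogenic genes that glucagon induces, had 54.2, 208, 85.3 and 894 CPM in fasted and 98.6, 117, 86.4 and 78.8 CPM in fed libraries. Its log2 fold change of 1.70 ± 0.54 passed (edgeR adjusted p = 0.0135), but rested on fasted library 4: without that library it was 0.29 with an adjusted p of 0.601. Il1r1, the interleukin-1 receptor, had 747, 1979, 899 and 3106 CPM in fasted and 169.6 to 259 CPM in fed libraries, and all 4 fasted libraries stood above the fed ones (3.09 ± 0.42). Gfra1, a receptor subunit for glial-derived neurotrophic factor, had 1890.2, 5094, 3176 and 7372 CPM in fasted and 478 to 908 CPM in fed libraries, with no overlap.

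The spread was widest in a defined set. Of 7596 genes averaging 10 CPM or more in the fasted group, 38 differed 8-fold or more between the highest and lowest fasted library, whereas 4 of 7828 such genes did so among the fed libraries. Library 4 was highest in 22 of the 38 and lowest in 11, library 1 was lowest in 23, and library 2 was lowest in none. In 22 of the 38 both libraries 2 and 4 exceeded both libraries 1 and 3, and in 11 both were below them. This order was looked for after the values were seen. The cytochrome gene Cyp3a59 had the reverse order, with 880, 624, 1144 and 88.0 CPM in fasted libraries. Tat, the tyrosine aminotransferase and a classical glucocorticoid target, had 362, 2551, 801 and 3137 CPM in fasted and 1362, 1711, 737 and 1244 CPM in fed libraries and did not pass (0.44 ± 0.51, edgeR adjusted p = 0.526). Slc7a2, a cationic amino acid transporter, had 559, 3479, 1025 and 6616 CPM in fasted and 1049.8 to 1882 CPM in fed libraries, and did not pass either (1.03 ± 0.51, edgeR adjusted p = 0.113). Lepr, the leptin receptor, had 40.6, 95.5, 30.1 and 513 CPM in fasted and 8.73 to 11.8 CPM in fed libraries, and Cdkn1a, a cell cycle inhibitor, had 6.98, 35.8, 8.41 and 62.2 CPM in fasted and 1.49 to 7.24 CPM in fed libraries. Tat, Slc7a2, Lepr and Cdkn1a were picked for their spread.

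The library numbers in the titles fall into 3 runs, the first with fasted and fed libraries 1 and 2 and the others with 1 library of each group; the labels do not call them batches. Within the 3 runs the log2 difference of Lpin1 was 1.15, -0.25 and 4.50, and that of Fkbp5 was 2.15, 0.87 and 4.22. Hour and length of fast were the same for all 4 libraries by label, and the part of mouse, handling or library in this spread was not tested. Mt2, a metallothionein that binds zinc and responds to glucocorticoids, was less spread among fasted libraries and had 36.8, 38.5, 25.7 and 57.9 CPM in fasted and 0.0501 to 0.861 CPM in fed libraries.

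**Figure D3:**
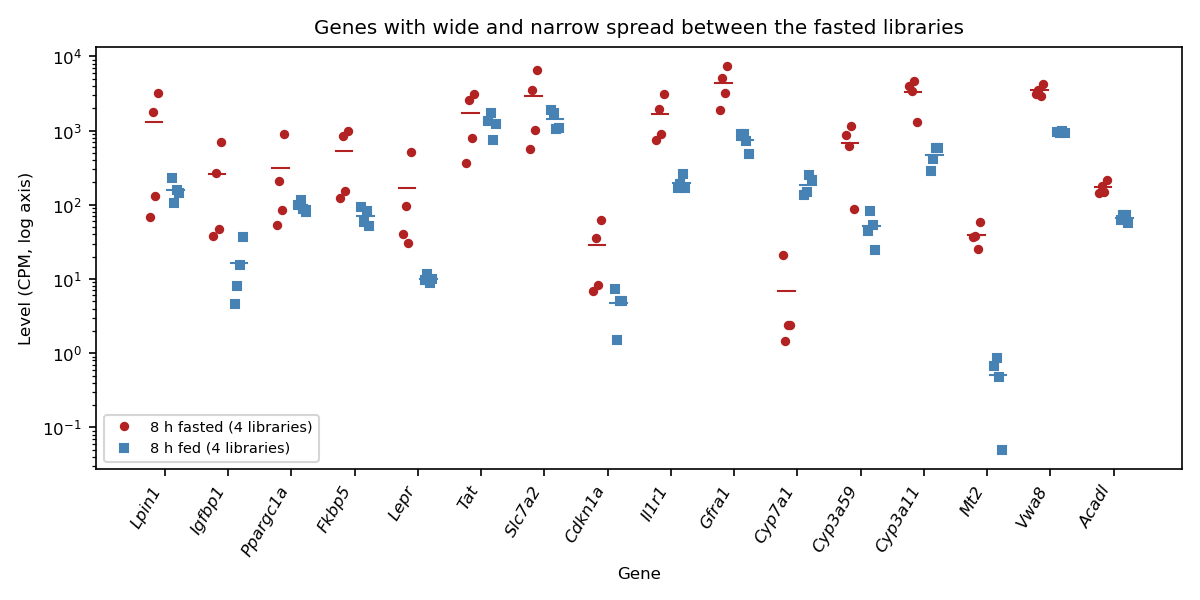
Level in CPM (log axis) of 16 genes in the 4 fasted (red circles, left) and 4 fed (blue squares, right) hepatocyte libraries, in the order 1 to 4 from left to right within each group, with the group mean as a line. Lpin1 ranges from 67.5 to 3237 CPM among fasted libraries, while Vwa8 and Acadl stay within 2932 to 4306 and 145 to 217 CPM.

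Most growth hormone signalling genes fell. Of 15 genes of this axis, 10 fell and 1 rose (median -0.76). Ghr (chr15:3317755-3583352), the growth hormone receptor, had 3247, 2170.2, 2260.5 and 1583 CPM in fasted libraries, against 7408, 7730.2, 8325 and 8441 CPM in fed libraries (-1.78 ± 0.32, edgeR adjusted p = 5.72e-05). Prlr, the prolactin receptor, had 219.8 to 661 CPM in fasted and 1682 to 2499 CPM in fed libraries (-2.47 ± 0.53). Igf1 and Igfals, which encode the main circulating product of the axis and its carrier subunit, fell by 1.86 ± 0.48 and 3.08 ± 0.48. Igf1 had 815, 383, 413 and 533 CPM in fasted libraries, against 2908, 868, 2444 and 1563 CPM in fed libraries, which were uneven. Esr1, the estrogen receptor, had 146, 127, 153 and 97.1 CPM in fasted and 769, 683, 742 and 948 CPM in fed libraries (-2.59 ± 0.26, edgeR adjusted p = 1.36e-08), and Lifr, the leukaemia inhibitory factor receptor, fell by 2.79 ± 0.28.

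Sex-biased liver genes are under growth hormone control, and all mice here were female. Of 32 female-biased genes, 15 fell and 8 rose (5 without fasted library 2, fed library 1 or fed library 2). Of 24 male-biased genes, 9 fell and 4 rose. The shares lower and higher were 46.9% and 25% for female-biased and 37.5% and 16.7% for male-biased genes. For all genes tested they were 20.7% and 18%. Cyp2c69 (chr19:39842660-39886769) and Cyp2c40, female-biased cytochromes, had 18.5, 49.8, 12.5 and 16.9 CPM and 41.9, 57.6, 28.2 and 24.0 CPM in fasted libraries, against 3375, 603, 2720.1 and 1382 CPM and 945, 238, 877 and 483 CPM in fed libraries. Fed libraries 2 and 4 were the lower ones for both, and also for A1bg, with 0.823 to 3.32 CPM in fasted and 288, 35.2, 174 and 93.3 CPM in fed libraries. Hsd3b5, a male-biased steroid dehydrogenase, was likewise lowest in fed libraries 2 and 4 of its group (0.0548 to 0.174 CPM in fasted; 3.86 to 30.9 CPM in fed libraries). Hao2, a hydroxyacid oxidase, had 0 to 1.05 CPM in fasted and 13.7 to 15.1 CPM in fed libraries (-4.58 ± 0.74). The Cyp2c genes, like the Cyp3a and Cyp4a genes, have close copies, and the sources do not state how reads that fit several copies were counted.

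Of 40 tested cytochromes of families 1 to 3, which include most drug-metabolising ones, 20 fell and 6 rose (median -0.77). Cyp3a11 (chr5:145854607-145879854), the main steroid and drug hydroxylase of mouse liver, had 4042, 3368, 4610.2 and 1309 CPM in fasted libraries, against 288, 415, 582 and 589 CPM in fed libraries (2.83 ± 0.46, edgeR adjusted p = 2.14e-05). Cyp3a25 had 8594, 6098, 8975 and 2487 CPM in fasted and 679 to 1208 CPM in fed libraries, and Cyp3a59 had 880.3, 624, 1144 and 88.0 CPM in fasted and 24.7 to 82.8 CPM in fed libraries. Another member of the subfamily, Cyp3a41a, named after its values were seen, had up to 109 CPM in fasted and 115 to 403 CPM in fed libraries and fell (-2.49 ± 0.95, edgeR adjusted p = 0.0394). For Cyp3a11, Cyp3a25 and Cyp3a59 fasted library 4 was the lowest of its group, the reverse of its place for Lpin1 and Igfbp1. Cyp2f2, a periportal cytochrome, fell to 37.6 to 47.4 CPM in fasted libraries, against 142 to 149.7 CPM in fed libraries (-1.71 ± 0.20).

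Transporters of organic ions fell in 12 of 27 cases and rose in 3 (5 without fasted library 4). That is 44.4% lower and 11.1% higher, against 20.7% and 18% of all genes tested. Slc22a7, an organic anion transporter, had 0.313, 0.329, 0.664 and 0 CPM in fasted libraries, against 14.3, 20.3, 16.0 and 9.07 CPM in fed libraries (-5.41 ± 0.49, edgeR adjusted p = 3.53e-09). Slco1a4, a bile acid and drug uptake carrier, rose by 1.61 ± 0.22. Hmox1, heme oxygenase, had 20.7, 25.4, 33.2 and 8.58 CPM in fasted and 2.17 to 3.33 CPM in fed libraries (2.86 ± 0.33). It was lower in tagged hepatocyte nuclei than in unpurified liver nuclei of the line (log2 -0.66, edgeR adjusted p = 0.0018). The part of other cells in its rise was not tested.

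Coagulation and complement proteins are made in the liver and secreted into plasma. Of 35 coagulation and complement genes, 24 fell and 2 rose, with a median of -1.06; without fasted library 4 none rose. Their summed level was 4572 to 8521 CPM in fasted and 11342 to 13320.3 CPM in fed libraries. F2, prothrombin, had 174, 198, 172 and 160.0 CPM in fasted libraries, against 365, 386, 323 and 322 CPM in fed libraries (-0.99 ± 0.12, edgeR adjusted p = 1.91e-07). F7, coagulation factor VII, had 30.4 to 57.0 CPM in fasted and 93.8 to 108 CPM in fed libraries (-1.25 ± 0.16). Mbl2, a mannose-binding lectin that starts the complement cascade, had 24.5, 21.3, 22.6 and 13.4 CPM in fasted and 71.4, 71.2, 91.8 and 77.3 CPM in fed libraries (-1.92 ± 0.25), and C1s1, a complement protease, fell by 1.58 ± 0.21.

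Of 23 acute phase genes, 7 fell and 3 rose (1 without fasted library 2). These shares, 30.4% and 13%, stand beside 20.7% and 18% of all genes tested. Orm1, orosomucoid, had 8.58 to 16.5 CPM in fasted and 51.3 to 74.8 CPM in fed libraries (-2.41 ± 0.37). Hp, haptoglobin, went the other way, with 64.6, 127, 62.0 and 97.1 CPM in fasted and 20.2, 32.7, 25.8 and 38.1 CPM in fed libraries (1.58 ± 0.29). Trf, transferrin, fell to 354 to 419.6 CPM in fasted libraries, against 1076 to 1987 CPM in fed libraries (-1.89 ± 0.25). Of the 18 hepatocyte markers, 1 rose and 3 fell (5.6% and 16.7%, both below the shares of all genes tested). Without fasted library 1 or 2, 2 rose.

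Chaperones and folding enzymes of the endoplasmic reticulum, through which these proteins pass, fell in 14 of 22 cases and rose in 1 (median -0.90). Hspa5, the central chaperone BiP, had 17.5, 21.3, 26.6 and 25.6 CPM in fasted libraries, against 55.0, 61.4, 54.0 and 50.7 CPM in fed libraries (-1.28 ± 0.31, edgeR adjusted p = 0.0018). Calr, calreticulin, had 18.3 to 24.9 CPM in fasted and 52.5 to 66.1 CPM in fed libraries. Pdia6 fell by 1.63 ± 0.37, Hsp90b1 by 0.89 ± 0.20 and Canx, calnexin, by 0.67 ± 0.16. The upstream windows of 18 of the 22 genes could be matched to the gene start used in the count table, and 9 of these held the endoplasmic reticulum stress element, searched on either strand as CCAAT, 9 bases of any kind and CCACG, within 250 bases of the start. Of 9000 tested genes with such a window, 18 held it (0.2%). Among the 9 chaperone genes with the element, 7 fell. Stretches of 80 bases from 4 of them are shown 5′ to 3′ on the gene's strand, with the element in capitals (RefSeq, GRCm38.p6, the same assembly as mm10), because their chaperone genes all fell. They lie at chr2:34771995-34772074 on the plus strand (Hspa5), chr8:84847044-84847123 on the minus strand (Calr), chr12:17266461-17266540 on the plus strand (Pdia6) and chr11:50325769-50325848 on the minus strand (Canx).
Hspa5: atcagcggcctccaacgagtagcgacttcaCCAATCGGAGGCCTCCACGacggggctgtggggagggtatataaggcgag
Calr: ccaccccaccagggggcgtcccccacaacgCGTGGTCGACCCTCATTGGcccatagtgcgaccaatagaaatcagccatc
Pdia6: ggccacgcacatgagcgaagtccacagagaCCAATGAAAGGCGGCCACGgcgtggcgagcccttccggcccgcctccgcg
Canx: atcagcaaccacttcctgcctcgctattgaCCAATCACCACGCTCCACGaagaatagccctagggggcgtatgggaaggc
In Calr the element reads on the opposite strand. A match of letters is a description and does not show that a factor binds there.

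Interferon-induced genes and antigen presentation fell together in the hepatocyte nuclei. Of 35 interferon-stimulated genes, 26 fell and none rose (median -1.12); without fed library 3, 1 rose. Of 16 interferon-inducible GTPases, 12 fell and none rose (median -1.40), and of 19 genes of MHC class I and the immunoproteasome, 16 fell and none rose (median -1.07). Zbp1, a sensor of Z-form nucleic acid, had 1.29, 0.932, 0.498 and 0.405 CPM in fasted libraries, against 20.7, 9.65, 19.6 and 14.98 CPM in fed libraries (-4.27 ± 0.41, edgeR adjusted p = 8.01e-09). Gbp6, a guanylate-binding protein, had 1.98, 2.19, 1.61 and 0.567 CPM in fasted and 24.8, 12.2, 34.5 and 21.3 CPM in fed libraries (-3.81 ± 0.43). Gbp10 and Gbp7 also fell, with log2 fold changes of -4.45 ± 0.58 and -3.06 ± 0.34. For Zbp1, Gbp6, Gbp10 and Gbp7 fed library 2 was the lowest of the fed group and still several fold above the fasted ones. Gbp7 was lower in tagged hepatocyte nuclei than in unpurified liver nuclei of the line (log2 -0.92, edgeR adjusted p = 1.12e-04). The part of other cells in its fall was not tested. Ifit1, an antiviral effector, was low throughout, with 0.243 to 0.823 CPM in fasted and 2.75 to 5.40 CPM in fed libraries.

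The signalling and antigen presentation genes varied little within each group. Stat2, which carries the type I interferon signal to the nucleus, had 120.3, 128, 104 and 97.5 CPM in fasted libraries, against 287, 284, 284 and 277 CPM in fed libraries (-1.33 ± 0.13, edgeR adjusted p = 6.98e-09). H2-Q10, a liver-secreted class I molecule, had 242 to 304 CPM in fasted and 644 to 798 CPM in fed libraries (-1.29 ± 0.18). B2m, the light chain of all class I molecules, had 38.2, 35.3, 36.7 and 36.8 CPM in fasted and 64.7, 73.7, 64.6 and 61.3 CPM in fed libraries (-0.85 ± 0.12); it overlaps Patl2 on the opposite strand. Of 17 macrophage markers tested, 5 rose, none fell and 12 did not pass (median 0.36). That is 29.4% higher, against 18% of all genes tested, and none lower, against 20.7%. Clec4f was among those that rose, with 10.6 to 19.0 CPM in fasted and 6.03 to 8.74 CPM in fed libraries. The summed level of the macrophage markers was higher in every fasted library than in any fed one. Their part in the lower interferon genes was not tested.

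The interferon-stimulated response element, searched on either strand as GAAA, 2 bases of any kind and GAAA, was found in the 250 bases upstream of 245 of 9000 tested genes (2.72%). Among genes with a matched window, it was present in 3.86% of the 1840 that fell and 2.07% of the 1640 that rose. The 1840 include the falling members of the lists given next, and the share without them was not computed. All 8 interferon-inducible GTPase genes with a matched window held the element, and 7 of them fell. It was also held by 9 of 22 interferon-stimulated genes, of which 6 fell, and by 3 of 15 class I genes, of which 3 fell. Stretches of 80 bases from 4 genes of these lists are shown 5′ to 3′, all on the plus strand, with the element in capitals (RefSeq, GRCm38.p6), since their genes all fell: chr3:142530253-142530332 (Gbp7), chr3:142620574-142620653 (Gbp2), chr11:58199476-58199555 (Igtp) and chr2:122147518-122147597 (B2m).
Gbp7: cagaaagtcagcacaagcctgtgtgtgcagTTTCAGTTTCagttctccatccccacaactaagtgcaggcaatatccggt
Gbp2: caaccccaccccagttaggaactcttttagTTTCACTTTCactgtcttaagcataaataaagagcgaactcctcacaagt
Igtp: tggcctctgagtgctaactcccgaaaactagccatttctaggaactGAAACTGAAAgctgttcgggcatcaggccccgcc
B2m: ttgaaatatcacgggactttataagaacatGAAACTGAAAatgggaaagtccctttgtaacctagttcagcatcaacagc
In Gbp7 and Gbp2 the element reads on the opposite strand. Igtp, an interferon-inducible GTPase, fell by 1.77 ± 0.31 and Gbp2 by 1.28 ± 0.43. The call of Gbp2 was lost when fed library 2, fasted library 3 or fed library 3 was left out (edgeR adjusted p = 0.0635, 0.0619 and 0.0833). Gbp2 was also lower in tagged than in unpurified nuclei (log2 -1.26, edgeR adjusted p = 1.05e-06), and the part of other cells was not tested. Hspa5, Canx, Gbp2 and Igtp were chosen after their values or sequences were seen.

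**Figure D4:**
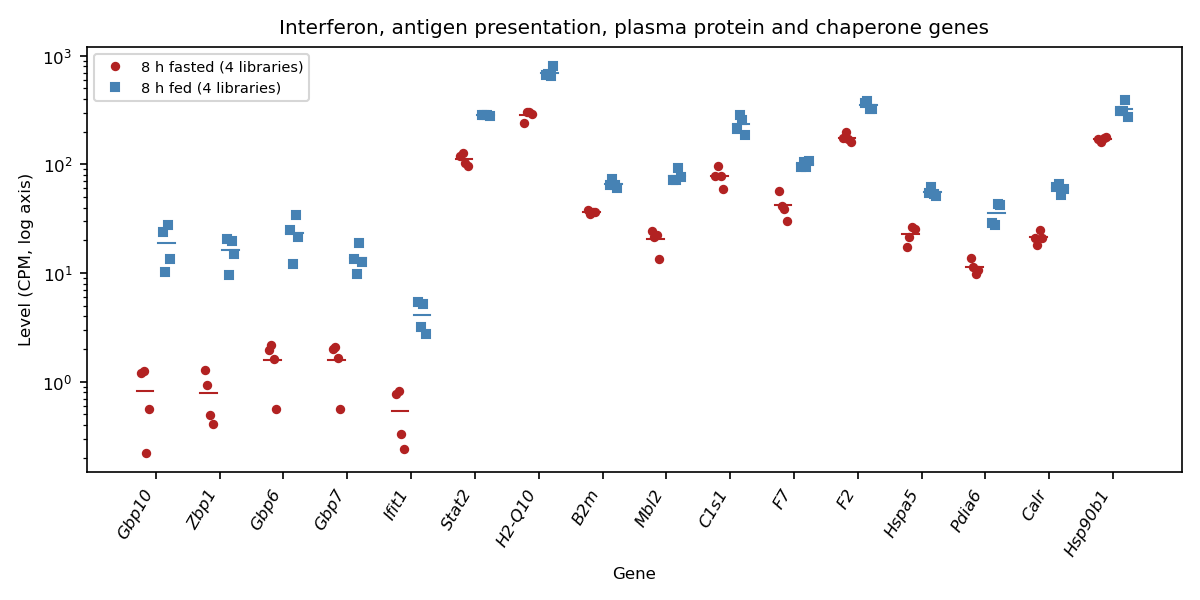
Level in CPM (log axis) of 16 interferon, antigen presentation, plasma protein and chaperone genes in the 4 fasted (red circles, left) and 4 fed (blue squares, right) hepatocyte libraries, with the group mean as a line. All 16 are lower in fasted libraries with no overlap. They were named by rules that use these values or after the values were seen, and 37.1% of all genes tested did not overlap. Gbp10 is at 0.221 to 1.26 CPM in fasted and 10.3 to 27.8 CPM in fed libraries. Stat2 is at 97.5 to 128 CPM in fasted and 277 to 287 CPM in fed libraries.

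Of 18 clock genes, 3 rose and 1 fell. These shares, 16.7% and 5.6%, are below the 18% and 20.7% of all genes tested. Nr1d2 (chr14:18204056-18239106), the repressor REV-ERBβ, had 91.2, 63.9, 84.1 and 99.7 CPM in fasted libraries, against 19.9, 19.1, 14.9 and 19.6 CPM in fed libraries (2.20 ± 0.20, edgeR adjusted p = 4.43e-09). Its paralogue Nr1d1 had 4.61 to 8.48 CPM in fasted and 0.835 to 2.20 CPM in fed libraries (2.20 ± 0.48). Per2, a component of the negative limb, had 55.0 to 83.6 CPM in fasted and 204 to 307 CPM in fed libraries (-1.81 ± 0.22). Arntl, the positive factor BMAL1, had 371 to 452 CPM in fasted and 343 to 437 CPM in fed libraries and did not pass (0.12 ± 0.29, edgeR adjusted p = 0.774). Per1, a period gene that glucocorticoids also induce, had 35.3, 125, 34.0 and 122 CPM in fasted and 25.0 to 58.8 CPM in fed libraries and did not pass either.

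Of 25 autophagy and lysosome genes, 17 rose and 2 fell (median 0.59). Bnip3l, a mitophagy receptor, had 52.3, 70.3, 67.4 and 92.4 CPM in fasted and 14.9 to 27.4 CPM in fed libraries (1.76 ± 0.20). Sqstm1, the cargo receptor p62, rose by 0.83 ± 0.13. Fbxo32, a ubiquitin ligase known from muscle wasting, had 20.3 to 32.2 CPM in fasted and 2.35 to 3.78 CPM in fed libraries (2.91 ± 0.33). Of 15 growth arrest and cyclin genes, 9 rose and 3 fell. Gadd45b, a stress-induced gene, had 25.5, 15.7, 14.8 and 11.5 CPM in fasted and 0.278, 1.38, 0.339 and 0.651 CPM in fed libraries (4.65 ± 0.57).

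The 8 h response was then set against the mean of the responses at 3, 16 and 24 h within 1 edgeR fit over 32 hepatocyte libraries. It was higher for 282 genes (2.18% of those tested) and lower for 385 (2.97%). Of the 282, 265 were also called higher at 8 h, and of the 385, 355 were called lower. Each time has its own hour of day, so length of fast and clock time cannot be told apart. Of the list of peroxisomal and omega oxidation and thioesterases, 12 of 23 genes lay above the other times and none below. The log2 fold change of Ehhadh was 1.29 ± 0.34, 4.07 ± 0.38, 1.70 ± 0.34 and 0.36 ± 0.33 at 3, 8, 16 and 24 h, a difference of 2.95 ± 0.40 from the mean of the others (edgeR adjusted p = 8.2e-05). Hmox1 stood at 1.49 ± 0.31, 2.86 ± 0.33, 0.09 ± 0.34 and -0.23 ± 0.35. Cyp4a14 had 4.84, 5.02, 4.87 and 4.30, and its difference of 0.35 ± 0.48 did not pass (edgeR adjusted p = 0.761).

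Several cytochrome and receptor genes also differed from the other times. Cyp3a59 had log2 fold changes of 0.54 ± 0.47, 3.74 ± 0.53, 1.25 ± 0.48 and -0.38 ± 0.47, and exceeded the mean of the other times by 3.27 ± 0.57 (edgeR adjusted p = 0.0011). Cyp2c69 had 0.28 ± 0.98, -6.37 ± 1.237, -0.20 ± 0.98 and -3.39 ± 1.07, and Cyp7a1 -3.53 ± 0.66, -4.69 ± 0.70, 0.53 ± 0.59 and -1.10 ± 0.60. Esr1 fell at 8 and 24 h, with log2 fold changes of -0.46 ± 0.24, -2.59 ± 0.26, 0.12 ± 0.24 and -2.04 ± 0.25. Of 35 coagulation and complement genes, 7 lay below the other times and none above. Fam65b and Loxl4, a lysyl oxidase-like enzyme, were 2.63 ± 0.38 and 2.76 ± 0.62 below the mean of the other times. Rgs16, a regulator of G protein signalling, was 3.36 ± 0.85 above that mean. Its 8 h fasted libraries had 4.10, 33.5, 8.69 and 31.9 CPM, an 8.17-fold spread, with libraries 2 and 4 high. Lrrc39, which overlaps Trmt13 on the opposite strand, and the transporter gene Slc22a27 differed by 2.76 ± 0.55 and -2.46 ± 0.64.

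Set against the nearest earlier time, the 8 h effect was higher for 317 genes (2.45%) and lower for 383 (2.96%). Set against 16 h it was higher for 508 (3.93%) and lower for 670 (5.18%). The median log2 fold change of the 18 glucocorticoid targets was 2.32 at 3 h and 1.11 at 8 h; this difference was not tested. Fkbp5 gave log2 fold changes of 4.47 ± 0.50, 2.88 ± 0.46, 1.74 ± 0.45 and 1.21 ± 0.44 at 3, 8, 16 and 24 h.

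**Figure D5:**
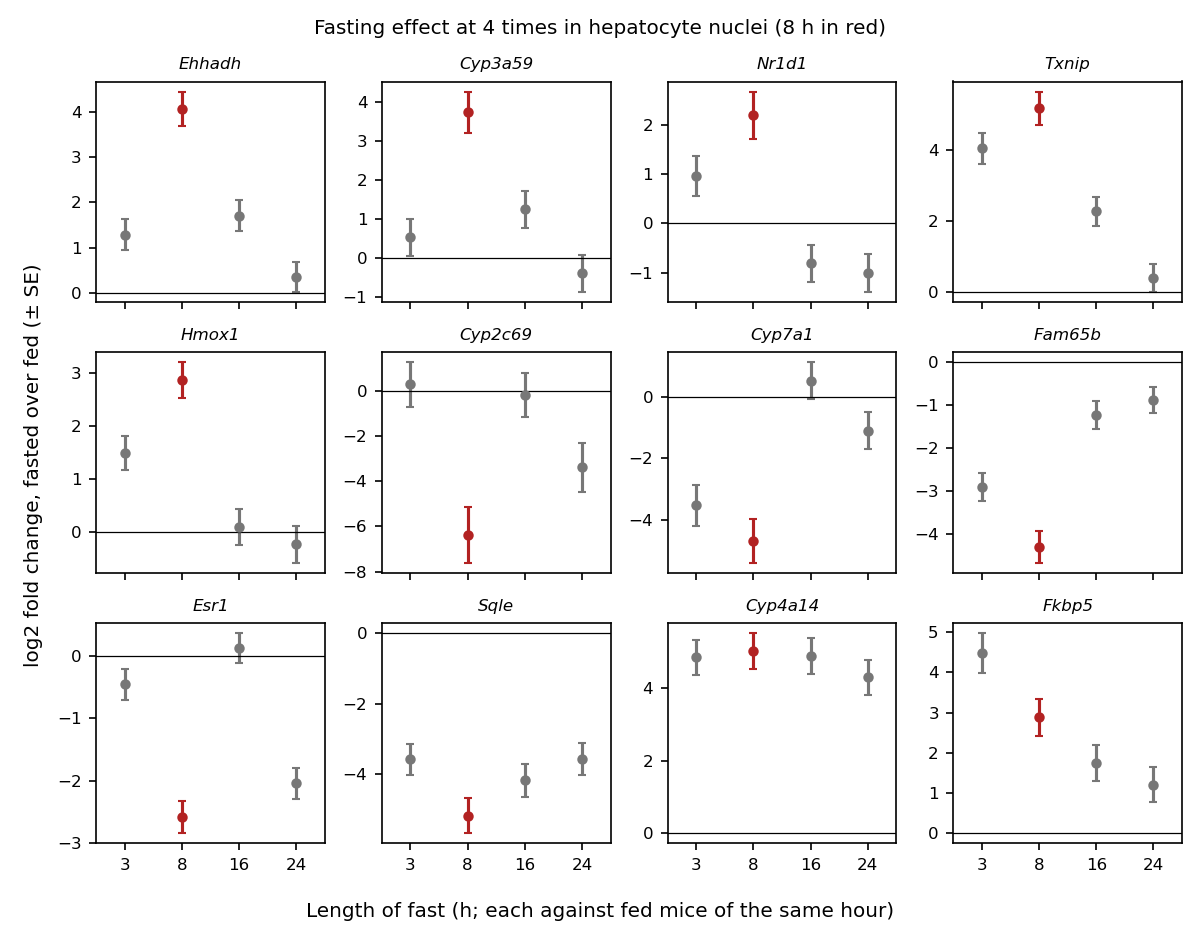
Log2 fold change of fasted over fed hepatocyte nuclei (± SE from edgeR) for 12 genes after 3, 8, 16 and 24 h without food, with 8 h in red and vertical axes that differ between panels. Ehhadh, Cyp3a59 and Cyp2c69 lie furthest from 0 at 8 h, while Cyp4a14 stays between 4.30 and 5.02 at all 4 times.

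Some responses differed between hepatocyte and macrophage nuclei of the same hour. Over all genes the difference was higher in hepatocytes for 4.13% and lower for 4.03% (edgeR adjusted p under 0.05). The Txnip response was 4.98 ± 0.52 higher in hepatocyte nuclei, with a log2 fold change of 0.20 ± 0.34 in macrophage nuclei. Hmox1 and Nr1d2 also differed, by 2.79 ± 0.37 and 1.99 ± 0.25. Zbp1 and Gbp6 fell in both, by 1.30 ± 0.30 and 1.08 ± 0.32 in macrophage nuclei, and the fall was larger in hepatocyte nuclei by a log2 difference of -2.95 ± 0.48 and -2.72 ± 0.48. Of 35 interferon-stimulated genes, 10 were lower in the hepatocyte response than in the macrophage response and none higher. The macrophage libraries also held hepatocyte transcripts, as hepatocyte markers summed to 8705 to 9876 CPM in fasted and 4684 to 7014 CPM in fed macrophage libraries (TMM-scaled), and the part of these in the differences was not tested.

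The direction of change could be set beside other mice, since the MAC-INTACT pools of unpurified liver nuclei came from a separate line. Of the 2332 genes that rose in hepatocyte nuclei, 93.3% were higher in the fasted than in the fed pool at 8 h, against 51.5% of all genes tested. Of the 2682 that fell, 90.9% were lower in the fasted pool, against 48.4% of all genes. With 1 pool per group there is no test. Ehhadh had 396 CPM in the fasted and 125 CPM in the fed pool, Sqle 3.15 and 30.2 CPM, and Zbp1 2.10 and 11.9 CPM. Lpin1 had 1324 CPM in the fasted and 207 CPM in the fed pool.

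The authors' deposited table, whose choice of genes the sources do not state, gives fold changes for 4745 genes, of which 2030 have an adjusted p under 0.05 at 8 h, 1216 of them higher and 814 lower. Of those, 2027 were tested here, and for all 2027 the authors' deposited table and the counts gave the same direction, with 1869 passing in both.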

How the data were processed

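Raw read counts per gene of 80 libraries were used as the authors deposited them. STAR 2.4.2a, DESeq2 1.24.0 and the mm10 build are named in the submitters' processing notes; the counting tool, its strand setting and its handling of reads that fit several genes are not stated in the labels or headers. The authors' deposited table of comparisons also gave log2 fold changes and adjusted p-values at 8 h. The 8 libraries were fitted with all 32 tagged hepatocyte libraries in edgeR 4.0.16 under R 4.3.3, with filterByExpr (minimum count 10, minimum total 15), TMM scaling, the robust quasi-likelihood F-test and Benjamini-Hochberg adjustment over 12942 genes at 0.05. SE is the absolute log2 fold change over the square root of F. CPM use TMM-scaled library sizes, as do list sums and the marker sums in macrophage libraries; the marker sums in the 8 hepatocyte libraries use plain totals. The fit was tested on simulated counts. Nothing states that libraries are separate animals, so p-values measure the spread between these libraries, which may be technical. Replicate numbers follow accession order.

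Alternatives were RLE and upper quartile scaling, no filter, DESeq2 1.42.0, the 8 libraries alone, a term for runs of library numbers, and leaving out each library. Genes were named by rule: the 12 highest and 12 lowest log2 fold changes, the 8 largest gains and losses in CPM and the 6 highest and lowest differences from other times (each called, with at least 1 CPM, no overlap and not depleted by over 0.5 log2 against unpurified nuclei), up to 4 called members per list by p-value, and a panel of fasting genes. The CPM, overlap and depletion filters were not applied to list members or the panel. Tat, Slc7a2, Lepr, Cdkn1a, Gbp2, Igtp, Hspa5, Canx and Cyp3a41a lie outside the rule. Some genes that the rule selects are not reported here. Members and lists were chosen with earlier results of these data known. Promoter windows of RefSeq were matched to tested genes by symbol and a gene start within 50 bases.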

Additional observations from a re-analysis of the deposited data

Results flagged for a closer look

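Of 220 groups of 4 libraries checked, over 110 genes, 10 held a library far from the other 3; chance gives about 1 in 20 groups. In fasted libraries the highest value stood apart for Acot1 (176 CPM), Cyp2c69 (49.8 CPM), Cyp7a1 (21.3 CPM), Lepr (513 CPM) and Ppp1r3g (19.3 CPM), and the lowest for Cyp2f2 (37.6 CPM) and Loxl4 (0.971 CPM). In fed libraries the highest value stood apart for Cidec (0.401 CPM), and the lowest for Hmox1 (2.17 CPM) and Nr1d2 (14.9 CPM).

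Of all genes tested, 2.18% lay above and 2.97% below the mean of the other times. Some of the 110 genes were named for this difference, so their share cannot be read as a result about them. For 41 of the 110 genes the log2 fold change at 8 h differed from the mean of those at 3, 16 and 24 h in edgeR (adjusted p under 0.05). It lay above that mean for Abcg5 by 0.91, Abcg8 by 1.29, Acot1 by 1.58, Angptl4 by 1.37, Bnip3l by 1.05, Clec4f by 0.80, Cyp3a11 by 2.50, Cyp3a25 by 1.99, Cyp3a59 by 3.27, Ehhadh by 2.95, Elovl3 by 2.63, Fbxo32 by 1.81, Gbe1 by 1.26, Hmox1 by 2.41, Lrrc39 by 2.76, Nr1d1 by 2.49, Nr1d2 by 1.88, Pdk4 by 1.94, Pex11a by 1.78, Rgs16 by 3.36, Slc22a5 by 1.59, Sqstm1 by 0.50, Txnip by 2.94 and Vwa8 by 0.92. It lay below (negative values) for B2m by -0.53, C1s1 by -1.05, Cyp2c40 by -2.86, Cyp2c69 by -5.27, Cyp7a1 by -3.32, Esr1 by -1.79, F2 by -0.60, Fam65b by -2.63, Gbp6 by -1.90, Ifit1 by -1.41, Loxl4 by -2.76, Mbl2 by -1.13, Per2 by -1.30, Slc22a27 by -2.46, Stat2 by -0.73, Trf by -1.22 and Zbp1 by -1.79.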

How the results depend on the processing

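The counts of genes higher and lower at 8 h stayed within 1.5 times of 2332 and 2682 under every alternative run, at 2053 to 2325 and 2190 to 2721 when each library was left out in turn. The differences from other times moved more. With DESeq2 the 8 h effect lay above the mean of the other times for 441 genes in place of 282, and above and below the 3 h effect for 509 and 591 genes in place of 317 and 383. Leaving out each library gave 158 to 269 genes above and 242 to 403 below the mean of the other times, 191 to 392 above and 248 to 537 below the 3 h effect, and 366 to 666 above and 439 to 991 below the 16 h effect; the cause was not tested. Of the 110 named genes checked, which leave out Cyp3a41a, 106 passed, and 102 of these passed under all 14 alternatives. Pck1, G6pc and Gbp2 lost the call without single libraries, as given above, and Ppargc1a also with the 8 libraries alone (1.71, adjusted p = 0.11, edgeR). Slc7a2 passed without fasted library 1 or 3. No paired analysis was possible because the labels give no replicate numbers that groups share. A term for the 3 runs of library numbers, each holding both groups, could be fitted and changed the call of none of the 110 named genes.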
